A study of Homo sapiens with 5 samples.

Results

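NuRD, the polycomb complexes, LSD1-CoREST and the DNA methylation enzymes are the repressive chromatin machinery of the cell. The zinc finger protein SALL4, normally active in embryonic tissue, recruits NuRD through a short motif at its amino terminus that binds the histone chaperone RBBP4. The genes described here were chosen by symbol from a list of 36 subunits and enzymes. Of these, 35 had a row of their own among the 24544 gene symbols of the tables. BMI1, a RING finger subunit of PRC1, was listed only in a row combined with its neighbour COMMD3. That combined row stood at 85.7 FPKM with empty vector, 71.8 with SALL4A, 125 with SALL4B, 50.8 in untreated SNU-398 and 67.9 after knockdown, and its value cannot be divided between the genes.

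RNA-seq was measured in 5 libraries from 2 established human hepatocellular carcinoma cell lines, 1 library per group. SNU-387 cells received lentivirus with no insert (empty vector), with the isoform SALL4A or with the isoform SALL4B. SNU-398 cells were either untreated, labelled input, or carried a SALL4 knockdown aimed at both isoforms. The protocol field gives lentiviral transduction with puromycin selection and RPMI medium with 10% serum for all samples. The same field stands on the sample whose source label says untreated. If that sample was indeed untreated, transduction and knockdown cannot be told apart in SNU-398. For the pair titled SNU-398, the field for the cell line names SNU-387 instead, and the groups here follow the titles. With 1 library per group, no difference below has a replicate check and no p-value was computed.

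NuRD couples nucleosome remodelling by CHD proteins to histone deacetylation by HDAC1 and HDAC2. PRC2 methylates lysine on histone H3 through EZH1 or EZH2, and PRC1 ubiquitinates histone H2A through RING1 or RNF2 and reads PRC2's mark through CBX proteins. DNMT1, guided by UHRF1, copies DNA methylation after replication, DNMT3A and DNMT3B place it anew, and TET enzymes oxidise it.

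The values are FPKM, fragment counts scaled for transcript length and library size, so levels may be compared between genes. Differences are log2 ratios of (FPKM + 1), a scale that understates changes of low genes, and were computed where at least 1 of the libraries compared reached 1 FPKM. Depth was estimated at 7790000 to 25300000 fragments, lowest in the knockdown library and highest in the SALL4A library. SALL4 itself was at 0.117 FPKM with empty vector, 23.1 with SALL4A, 10.4 with SALL4B, 39.4 in untreated SNU-398 and 7.45 after knockdown, in the direction of the titles. Small RNAs held 8.52% of summed FPKM with empty vector, 14.4% with SALL4A, 9.02% with SALL4B, 1.83% in untreated SNU-398 and 39.3% after knockdown. Of 7 hepatocyte markers, HNF4A stayed at or below 0.287 FPKM, APOB at or below 0.143, TTR at or below 0.197 and ALB at or below 1.28 in all 5 libraries. SERPINA1 was at 5.78 FPKM with empty vector, 4.66 with SALL4A and 25.3 with SALL4B, APOA1 reached 14.9 with SALL4B and AFP 1.23 with SALL4A. The keratins KRT8 and KRT18 were at 185 to 350 FPKM in the 3 SNU-387 libraries and at 0.0340 to 4.78 FPKM in the 2 libraries titled SNU-398. The other epithelial markers went the opposite way, EPCAM being at 1.81 to 7.16 FPKM in SNU-387 and 14.7 to 33.7 in SNU-398, and CDH1 at or below 0.0424 FPKM in SNU-387 and at 0.159 and 0.583 in SNU-398. Marker lists of other cell types also differed between groups. Of 5 mesenchymal and fibroblast markers, 4 were at least 2-fold lower with SALL4A, beside 3.24% of all genes. With SALL4B 3 were lower, beside 4.86%, and 1 was higher, beside 3.13%. The collagen gene COL1A2 was at 326 FPKM with empty vector, 83.2 with SALL4A and 8.50 with SALL4B, and VIM at 47.4, 33.1 and 170. In untreated SNU-398 and after knockdown, COL1A2 was at 0.695 and 1.58 FPKM and VIM at 484 and 615. VIM made up most of the list's sum with SALL4B and in both SNU-398 libraries. The summed level of the list was 498 FPKM with empty vector, 142 with SALL4A, 218 with SALL4B, 528 in untreated SNU-398 and 683 after knockdown. Summed levels in the same order were 2.18, 10.1, 1.63, 0.0514 and 0.243 FPKM for 3 endothelial markers, 38.6, 19.1, 43.7, 5.18 and 9.53 FPKM for 4 leukocyte markers, and 7.10, 6.69, 41.5, 1.64 and 0.921 FPKM for 7 hepatocyte markers. CD68 made up most of the leukocyte sum in every library. The part of these marker lists in the results was not tested. In bulk RNA, fewer cells of a type and less RNA per cell cannot be told apart.

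Promoters of 33 of the 36 genes were found in a RefSeq table (build GRCh38.p14). Each was a window from 250 bases before to 50 bases after 1 listed start site, which can lie inside the gene. The DNMT3A window, at bases 25252082 to 25252381, lay well inside that minus-strand gene, which spans 25227855 to 25342590. The UHRF1 window also began past that gene's first base, 4903080. The values below describe these windows only. CBX2, CBX8 and CHD5 had no entry. Member promoters were rich in CpG, the dinucleotide that DNMTs methylate, with a median of 32 CpGs per 300 bases against 14 over 35116 promoters, and a median GC content of 71.7% against 58.7%. The E2F site letters TTTCCCGC, TTTGGCGC or TTTGCCGC, on either strand, were in 4 of 33 member promoters (12.1%) and in 2.85% of all promoters. Those 4 belonged to UHRF1, SUZ12, EZH1 and MTF2. The AT-rich letters AATATT or AATATA, of the kind bound by SALL4's last zinc finger cluster, were in 1 member promoter, that of RNF2 (3.03%), and in 13.4% of all. A match describes letters and is not evidence of binding. UHRF1, SUZ12 and EZH1 are shown because their SALL4A log2 ratios were among the members' largest in either direction. UHRF1 was at 0.91, SUZ12 at 0.59 and EZH1 at -0.63, while MTF2 was at 0.15, so the 4 had no common direction. The E2F match is in capitals, and each is written 5′ to 3′ on the gene's strand.
UHRF1 promoter, chr19:4909251-4909550, plus strand: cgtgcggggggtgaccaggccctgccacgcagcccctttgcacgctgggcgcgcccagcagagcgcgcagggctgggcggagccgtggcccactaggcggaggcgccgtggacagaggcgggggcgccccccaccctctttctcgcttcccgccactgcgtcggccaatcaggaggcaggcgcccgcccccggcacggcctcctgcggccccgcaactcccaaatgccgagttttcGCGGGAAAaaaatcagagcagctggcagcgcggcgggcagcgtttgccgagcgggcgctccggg
SUZ12 promoter, chr17:31936757-31937056, plus strand: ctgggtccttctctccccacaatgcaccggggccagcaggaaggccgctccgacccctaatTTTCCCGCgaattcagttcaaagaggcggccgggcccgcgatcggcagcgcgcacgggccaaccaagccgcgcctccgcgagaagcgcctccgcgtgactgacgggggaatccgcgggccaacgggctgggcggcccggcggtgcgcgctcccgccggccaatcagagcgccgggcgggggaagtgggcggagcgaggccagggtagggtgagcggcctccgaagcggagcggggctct
EZH1 promoter, chr17:42744991-42745290, minus strand: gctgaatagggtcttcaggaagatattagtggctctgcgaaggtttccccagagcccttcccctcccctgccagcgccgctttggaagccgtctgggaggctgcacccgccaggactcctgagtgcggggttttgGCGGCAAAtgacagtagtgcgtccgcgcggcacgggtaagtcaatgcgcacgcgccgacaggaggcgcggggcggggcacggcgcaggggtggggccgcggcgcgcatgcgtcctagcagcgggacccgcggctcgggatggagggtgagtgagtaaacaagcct
Counted from the listed start site, the match begins at -14 in UHRF1, at -189 in SUZ12 and at -115 in EZH1.

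The largest differences among these genes lay between the lines. Untreated SNU-398 cells had higher FPKM than empty vector SNU-387 cells for 27 of 35 genes, where 52.1% of all 13996 genes tested were higher. The members' median log2 ratio was 0.72 against 0.07 over all genes. At least 2-fold higher were 16 members, where 23.7% of all genes were, and 1 was at least 2-fold lower, where 21.4% were. Every one of the 7 DNA methylation genes was at least 2-fold higher in SNU-398, the nearest to that limit being DNMT1 at 1.004. With the median of all genes set to 0, DNMT1 was at 0.93 and UHRF1 at 0.98, and with a pseudocount of 5 DNMT1, DNMT3B, UHRF1 and TET2 were at 0.92 to 0.97. The comparison joins cell line, vector and library, which cannot be told apart here. The median ratio of all genes shifted with scaling between these lines, to 0.25 with a common upper quartile and to 0.41 with a common total without small RNAs, and the members' median moved with it to 0.90 and 1.07.

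**Figure D1:**
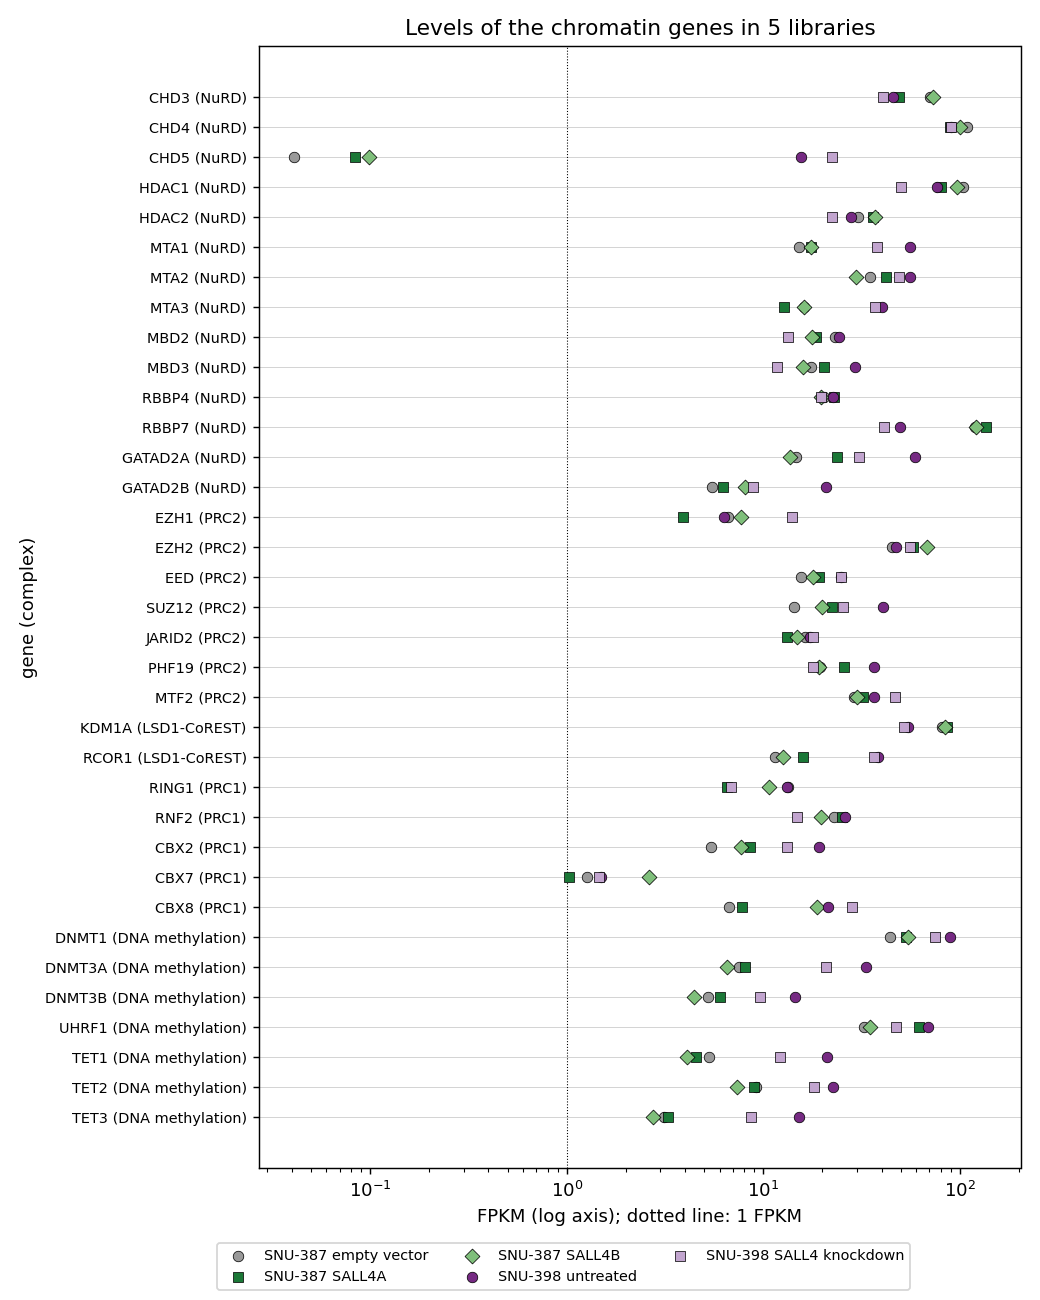
FPKM (log axis) of the 35 genes in each of the 5 libraries, 1 point per library and gene, with a dotted line at 1 FPKM. CHD5 lies below 0.1 FPKM in the 3 SNU-387 libraries and above 15 FPKM in both SNU-398 libraries, and DNMT3A, DNMT3B and all 3 TET genes have every SNU-398 point above every SNU-387 point.

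Among the de novo methyltransferases, DNMT3A (chromosome 2, bases 25227855 to 25342590 of GRCh38) stood at 7.48 FPKM with empty vector, 8.08 with SALL4A, 6.55 with SALL4B, 33.2 in untreated SNU-398 and 20.8 after knockdown. DNMT3B was at 5.25, 6.05, 4.47, 14.4 and 9.67 FPKM in the same order. For both genes the lines did not overlap, and the knockdown library lay between untreated SNU-398 and SNU-387. The log2 ratios between lines were 2.01 for DNMT3A and 1.30 for DNMT3B. DNMT3A made up 57.2 to 59.5% of the summed FPKM of this pair in SNU-387 and 68.3 to 69.7% in SNU-398.

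The maintenance enzyme DNMT1 was at 44.0 FPKM with empty vector, 53.1 with SALL4A, 54.3 with SALL4B, 89.2 in untreated SNU-398 and 75.0 after knockdown. It shares 83 exon bases with S1PR2, which was at 0.764 to 4.29 FPKM. UHRF1 (chromosome 19, bases 4903080 to 4962154), which brings DNMT1 to newly replicated DNA, was at 32.6, 62.3, 34.8, 68.6 and 47.3 FPKM in that order. UHRF1 with SALL4A therefore stood above the knockdown library of the other line, the only member of this group whose lines overlapped. Within a library, where scaling plays no part, the UHRF1 level over the DNMT1 level was 1.17 with SALL4A and 0.631 to 0.769 in the other 4 libraries.

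The TET dioxygenases followed the same order of lines. TET1 was at 5.27 FPKM with empty vector, 4.56 with SALL4A, 4.07 with SALL4B, 21.1 in untreated SNU-398 and 12.1 after knockdown. TET2 was at 9.16, 8.93, 7.35, 22.5 and 18.2 FPKM, and TET3 at 3.13, 3.29, 2.76, 15.2 and 8.68 FPKM. All 3 were lowest with SALL4B and highest in untreated SNU-398. TET2 was the most abundant of the 3 in every library, with 51.8 to 53.2% of their summed FPKM in SNU-387, 38.3% in untreated SNU-398 and 46.6% after knockdown.

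CHD5 (chromosome 1, bases 6101793 to 6180123), the NuRD ATPase known mainly from neural tissue, was the member with the largest difference between lines. It was at 0.0410 FPKM with empty vector, 0.0834 with SALL4A and 0.0993 with SALL4B, an estimated 5, 20 and 9 fragments. In SNU-398 it was at 15.6 FPKM untreated and 22.4 after knockdown, a log2 ratio of 0.50 for knockdown. It passed the filter only in the comparisons that include SNU-398. CHD5 made up 10.3% of the summed CHD3, CHD4 and CHD5 level in untreated SNU-398 and 14.6% after knockdown.

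The main NuRD ATPase gene, CHD4, was at 109 FPKM with empty vector, 89.4 with SALL4A, 100.4 with SALL4B, 90.2 in untreated SNU-398 and 90.3 after knockdown. CHD4 shares 5964 exon bases, most of its transcript, with another coding annotation on the same strand, so its reads may be mixed. CHD3 was at 70.6, 48.8, 73.0, 45.5 and 40.8 FPKM in the same order. CHD3 was lower with SALL4A than in the other SNU-387 libraries, at a log2 ratio of -0.52 to empty vector. The deacetylase HDAC1 was at 104, 80.1, 96.5, 76.7 and 50.2 FPKM, and HDAC2 at 30.2, 36.1, 36.9, 27.9 and 22.3 FPKM. Both deacetylases had their lowest level in the knockdown library.

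The MTA genes encode the scaffold of NuRD. MTA1 was at 15.2 FPKM with empty vector, 17.4 with SALL4A, 17.5 with SALL4B, 55.4 in untreated SNU-398 and 37.7 after knockdown, and MTA3 at 16.1, 12.8, 16.1, 40.2 and 37.1 FPKM. MTA2 varied less, at 34.7, 42.0, 29.6, 55.8 and 48.8 FPKM. MTA2 was thus the leading scaffold gene in SNU-387, with 46.9 to 58.2% of the family level, while MTA1 and MTA2 held 36.6% and 36.8% in untreated SNU-398. Ratios between lines were 1.81 for MTA1, 1.27 for MTA3 and 0.67 for MTA2.

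The histone chaperones RBBP4 and RBBP7, shared by NuRD and PRC2, had different patterns. RBBP4, the partner of SALL4's motif, was at 20.3 FPKM with empty vector, 22.9 with SALL4A, 19.7 with SALL4B, 22.5 in untreated SNU-398 and 19.7 after knockdown. Its exons overlap those of SYNC on the opposite strand over 1706 bases, and SYNC was at 16.9 to 24.9 FPKM, so reads of the pair may be mixed. RBBP7 was at 120.0, 136, 121, 49.5 and 41.0 FPKM, the only member at least 2-fold lower in untreated SNU-398 (-1.26). With a common total without small RNAs that ratio was -0.91. RBBP7 held 85.5 to 86.0% of the pair's level in SNU-387 and 67.6 to 68.7% in SNU-398.

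GATAD2A and GATAD2B, which join the MBD and CHD proteins of NuRD, were higher in SNU-398. GATAD2A (chromosome 19, bases 19385826 to 19508931) stood at 14.7 FPKM with empty vector, 23.6 with SALL4A, 13.7 with SALL4B, 59.2 in untreated SNU-398 and 30.7 after knockdown. GATAD2B was at 5.46, 6.24, 8.11, 21.0 and 8.88 FPKM. Within SNU-387 the first was highest with SALL4A and the second with SALL4B, and after knockdown both still stood above all 3 SNU-387 libraries. MBD2, which binds methylated DNA, was at 23.1, 18.6, 17.6, 24.3 and 13.4 FPKM, and its relative MBD3 at 17.4, 20.3, 15.9, 29.4 and 11.7 FPKM. Both MBD genes were lowest in the knockdown library.

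KDM1A, the LSD1 histone demethylase, and RCOR1, its CoREST partner, differed between lines in opposite directions. KDM1A was at 80.7 FPKM with empty vector, 86.0 with SALL4A, 84.1 with SALL4B, 54.3 in untreated SNU-398 and 51.7 after knockdown. RCOR1 was at 11.4, 15.9, 12.6, 38.3 and 36.5 FPKM. RCOR1 was thus higher and KDM1A lower in both SNU-398 libraries than in every SNU-387 library, and the knockdown ratio was -0.07 for each.

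With SALL4A in SNU-387, 34 members passed the filter and none reached 2-fold, where 2.27% of all 12441 genes were at least 2-fold higher and 3.24% lower. At 1.5-fold, 3 members were higher (UHRF1, GATAD2A, SUZ12) and 2 lower (RING1, EZH1), or 8.82% and 5.88%, beside 8.72% and 9.74% of all genes. These shares are close to or below the background. In direction, 23 of 34 members were higher, with a median of 0.17 against 0.01 over all genes, and 50.7% of all genes were higher. UHRF1 had the highest ratio, 0.91, with an estimated 95% counting interval of 0.83 to 1.003, and reached 1.02 with a common total without small RNAs. The SALL4A and SALL4B comparisons share the empty vector library, so they are not independent of each other. GATAD2A was at 0.65 and SUZ12 at 0.59 with SALL4A, with CBX2 just under 1.5-fold at 0.57. Counting intervals cover sampling of fragments only.

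UHRF1 is a replication-linked gene, and genes of proliferation were higher in the same library. Of 20 proliferation genes, 18 were higher with SALL4A, 5 of them at least 1.5-fold, beside 8.72% of all genes, with a median of 0.40. MCM6, a replication helicase subunit, was at 66.2 against 35.2 FPKM (0.89) and E2F1, the transcription factor of S phase genes, at 17.7 against 9.33 FPKM (0.86). With SALL4B the median of the list was 0.07 and 14 of 20 were higher. The part of proliferation in the UHRF1 value was not tested.

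**Figure D2:**
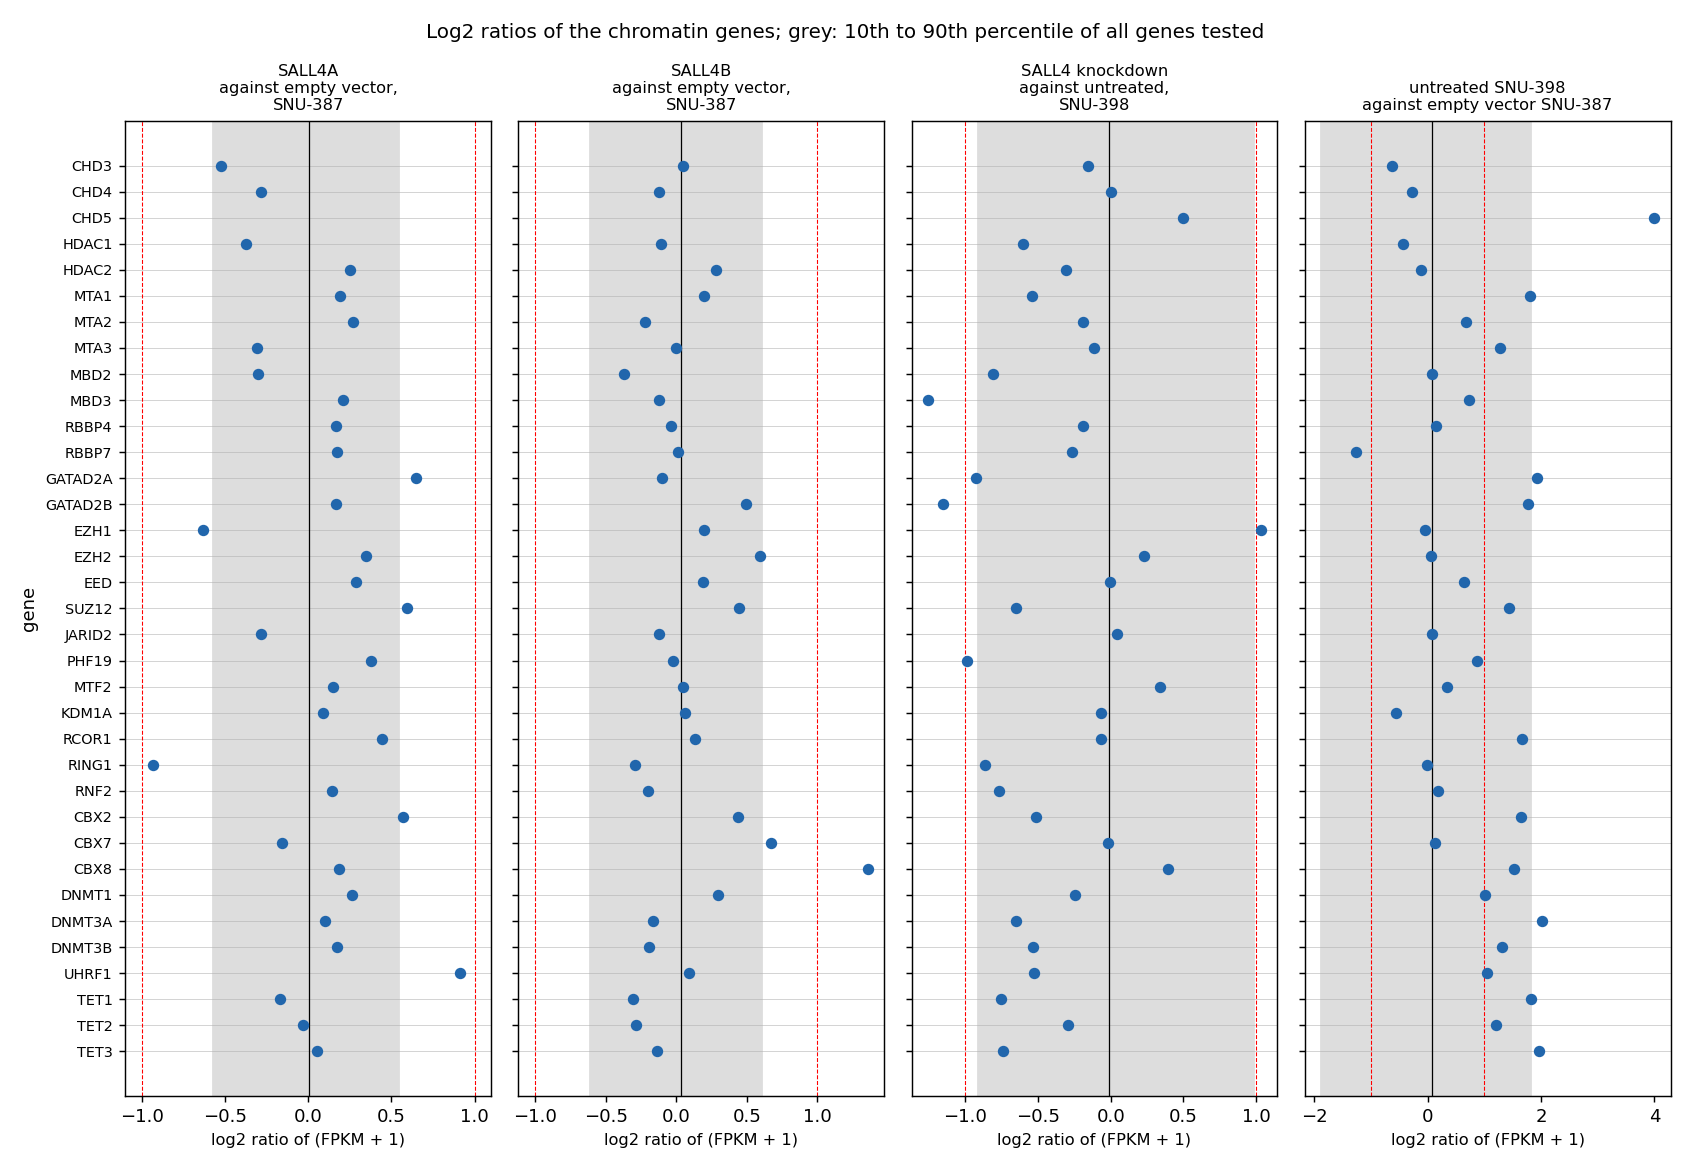
Log2 ratios of (FPKM + 1) of each gene in 4 comparisons, 1 point per gene, with a black line at the median of all genes tested, a grey band from their 10th to 90th percentile and dashed lines at 2-fold. UHRF1 (0.91) and RING1 (-0.93) lie at the ends with SALL4A, CBX8 (1.36) with SALL4B, and MBD3 (-1.26) and EZH1 (1.03) with knockdown.

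RING1 (chromosome 6, 33208495 to 33212722), one of the paired catalytic subunits of PRC1, had the lowest ratio with SALL4A, -0.93, with a counting interval of -1.18 to -0.69, and -1.02 with a pseudocount of 0.1. It was at 13.4 FPKM with empty vector, 6.52 with SALL4A, 10.7 with SALL4B, 13.2 in untreated SNU-398 and 6.83 after knockdown. The gene was therefore low in 1 library with added SALL4 and in 1 with reduced SALL4. Its paralog RNF2 was at 22.8, 25.2, 19.7, 26.1 and 14.9 FPKM. The RNF2 level over the RING1 level was 3.87 with SALL4A and 1.70 to 2.18 in the other 4 libraries. RING1 was listed in 6 rows, of which 5 were at 0 in all libraries.

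The balance of the PRC2 enzymes differed between libraries. EZH2 (chromosome 7, 148807383 to 148884321), the form of dividing cells, was at 45.1 FPKM with empty vector, 57.7 with SALL4A, 68.4 with SALL4B, 47.1 in untreated SNU-398 and 55.5 after knockdown. EZH1 (chromosome 17, bases 42700275 to 42745049), the form of resting cells, was at 6.60, 3.91, 7.72, 6.33 and 13.99 FPKM. EZH2 was the main form everywhere, and the EZH2 level was 6.83 times that of EZH1 with empty vector, 14.7 times with SALL4A, 8.86 times with SALL4B, 7.44 times in untreated SNU-398 and 3.97 times after knockdown. EZH1 had log2 ratios of -0.63 with SALL4A, 0.20 with SALL4B and 1.03 with knockdown.

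The other PRC2 core genes were lowest with empty vector. EED, which reads the PRC2 mark, was at 15.6 FPKM with empty vector, 19.3 with SALL4A, 17.9 with SALL4B, 24.9 in untreated SNU-398 and 24.8 after knockdown. SUZ12, the scaffold, was at 14.4, 22.2, 19.9, 40.5 and 25.5 FPKM, beside 3.81 to 9.92 FPKM for its pseudogene SUZ12P1, with which it could share reads. PHF19 and MTF2, which steer PRC2 to chromatin, were at 19.5, 25.6, 19.1, 36.5 and 17.9 FPKM and at 28.9, 32.1, 29.9, 36.7 and 46.8 FPKM. PHF19 was near 2-fold lower after knockdown (-0.99) while MTF2 was higher (0.34). JARID2, another PRC2 cofactor, ranged only from 13.2 to 17.9 FPKM.

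With SALL4B in SNU-387, CBX8 was the only one of 34 members to reach 2-fold, beside 3.13% of 12459 genes higher and 4.86% lower. CBX8 (chromosome 17, 79792132 to 79801683), a chromodomain subunit of PRC1, was at 6.71 FPKM with empty vector, 7.78 with SALL4A, 18.7 with SALL4B, 21.3 in untreated SNU-398 and 28.4 after knockdown. Its log2 ratio was 1.36 with a counting interval of 1.16 to 1.55, higher than 98.7% of all genes tested. Its level with SALL4B approached that of SNU-398. At 1.5-fold, CBX8, CBX7 (0.67) and EZH2 (0.59) were higher and no member was lower, or 8.82% and 0%, beside 10.8% and 10.6% of all genes. The members' median was 0.00 against 0.03 over all genes, with 17 higher and 17 lower, where 53.4% of all genes were higher.

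CBX8 lies 4149 bases from CBX2, another PRC1 chromodomain gene, on chromosome 17. CBX2 was at 5.44 FPKM with empty vector, 8.56 with SALL4A, 7.74 with SALL4B, 19.2 in untreated SNU-398 and 13.2 after knockdown. CBX8 was higher with SALL4B (1.36) and after knockdown (0.40), and nearer the empty vector level with SALL4A (0.19). CBX2 was higher with either isoform (0.57 with SALL4A and 0.44 with SALL4B) and lower after knockdown (-0.51). CBX7 was the least expressed PRC1 member, at 1.27, 1.03, 2.61, 1.49 and 1.46 FPKM or an estimated 45 to 135 fragments, and its SALL4B interval ran from 0.22 to 1.13. It shares 1338 exon bases with an antisense RNA, which without stated strand use cannot be told apart from it.

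**Figure D3:**
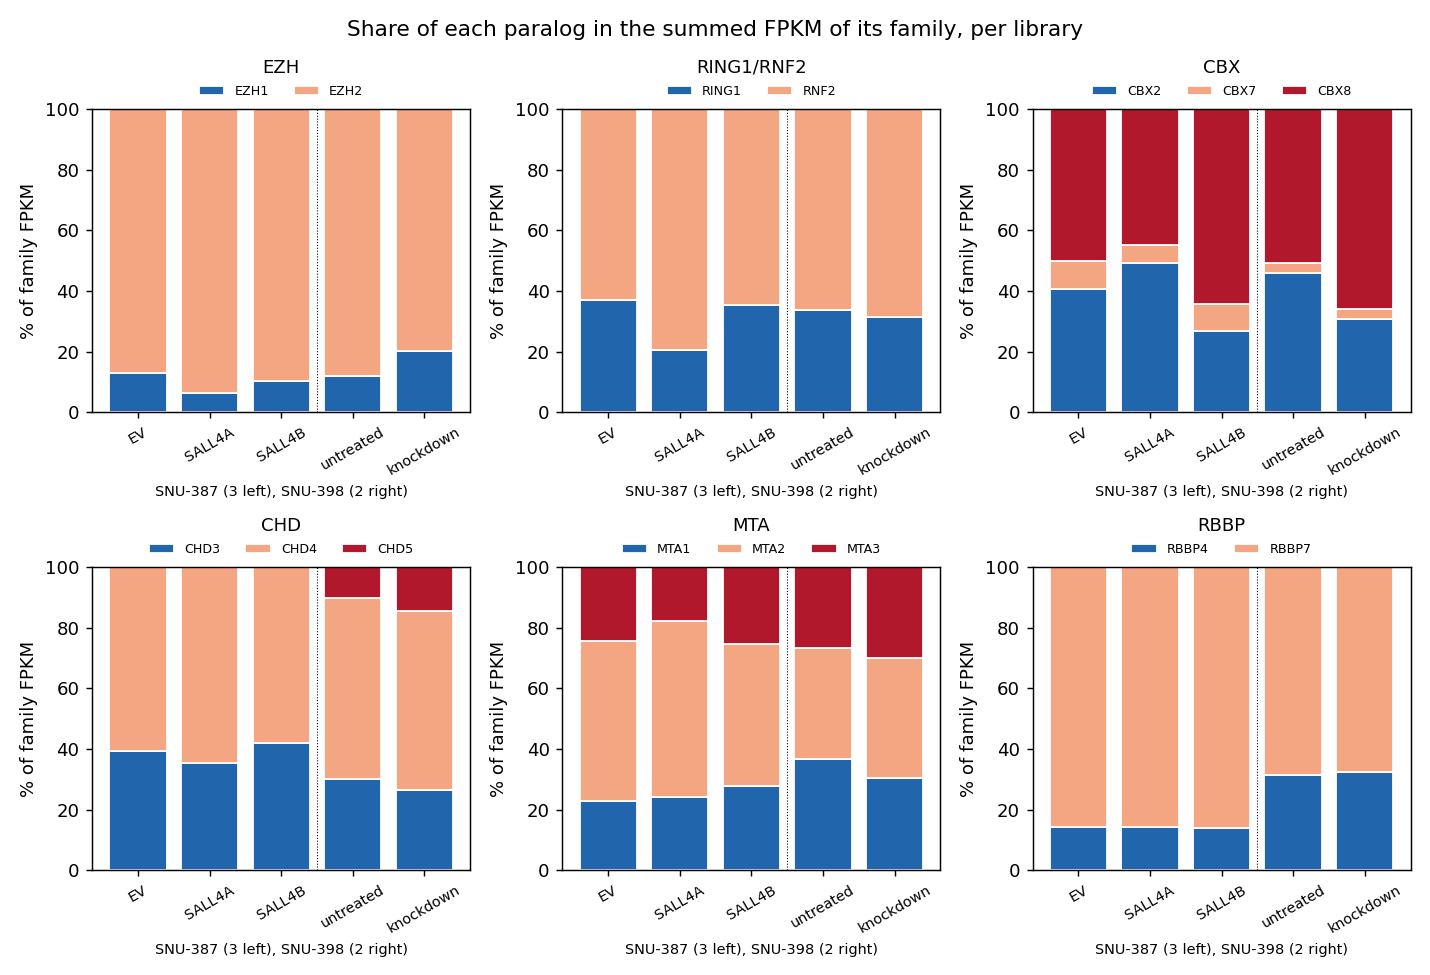
Share of each paralog in the summed FPKM of its family (percent), as stacked bars for the 5 libraries, with 1 panel per family. EZH1 holds 6.35% with SALL4A and 20.1% after knockdown, RING1 holds 20.5% with SALL4A, and CBX8 holds 64.4% with SALL4B and 66.0% after knockdown.

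SALL4A was also set against SALL4B directly. UHRF1 (0.82) and GATAD2A (0.75) were at least 1.5-fold higher with SALL4A, beside 10.7% of 12424 genes, and RING1 (-0.64), EZH1 (-0.83), CBX7 (-0.83) and CBX8 (-1.17) were at least 1.5-fold lower, beside 12.3%. Of these CBX8 alone passed 2-fold, which 3.39% of genes did on the lower side and 3.82% on the higher side, where no member was. With a common total without small RNAs the CBX8 ratio was -0.99 and the UHRF1 ratio 1.01. That rescaling moved the median of all genes to 0.17 and the share of higher genes among those past 2-fold from 53.0% to 73.0%. The 3 PRC1 genes RING1, CBX7 and CBX8 were all lower with SALL4A, whereas CBX2 (0.13) and RNF2 (0.35) were not.

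With SALL4 knockdown in SNU-398, 28 of 35 members were lower, where 50.6% of 13716 genes were. The members' median was -0.30 against -0.01. At 1.5-fold, 12 members (34.3%) were lower, beside 20.8% of all genes, and 1 (2.86%) was higher, beside 21.2%. At 2-fold, MBD3 and GATAD2B were lower, beside 8.13% of all genes, and EZH1 was higher, beside 9.73%. With a pseudocount of 5, GATAD2B was at -0.90 and EZH1 at 0.75. Coding genes with transcripts as long as those of the members had a median of -0.03, with 20.4% at least 1.5-fold lower and 18.0% higher, a background chosen after the values were seen. The knockdown library was the shallowest, and small RNAs held the largest share of its FPKM.

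MBD3 (chromosome 19, 1573596 to 1592801) had the lowest knockdown ratio, -1.26, with a counting interval of -1.46 to -1.05, and was followed by GATAD2B at -1.15, PHF19 at -0.99 and GATAD2A at -0.93. MBD3 shares 767 exon bases with another coding annotation, so its reads may be mixed. RING1 (-0.86), MBD2 (-0.81), RNF2 (-0.77), TET1 (-0.75), TET3 (-0.74), SUZ12 (-0.65), DNMT3A (-0.65) and HDAC1 (-0.60) were the others at least 1.5-fold lower. All 4 genes of the MBD and GATAD2 pairs of NuRD were among them. The ATPases were not, with CHD4 at 0.00 and CHD3 at -0.15. By complex, 12 of 14 NuRD genes and 4 of 5 PRC1 genes were lower, and 3 of 7 PRC2 genes.

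All 7 DNA methylation genes were lower after knockdown, with a median of -0.53. Methylating and demethylating enzymes were lower alike: DNMT3B was at -0.53, UHRF1 at -0.53, TET2 at -0.30 and DNMT1 at -0.25. None of the 7 reached 2-fold. Proliferation genes were lower in the same library, 16 of 20, with a median of -0.48. At least 1.5-fold lower were 5 of the 20, a share close to the 20.8% of all genes. TYMS, the thymidylate synthase, was at 15.4 against 46.2 FPKM (-1.52) and the proliferation antigen gene MKI67 at 122 against 235 FPKM (-0.94). The part of proliferation in these values was not tested.

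**Figure D4:**
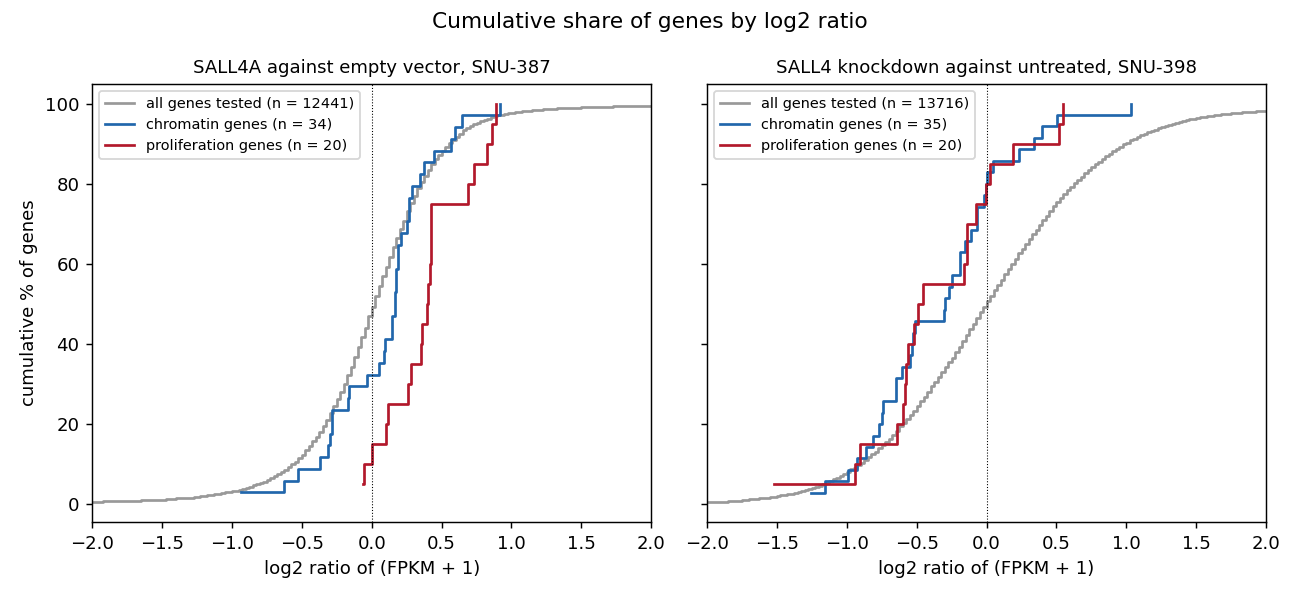
Cumulative percent of genes by log2 ratio of (FPKM + 1), for all genes tested (grey), the chromatin genes (blue) and 20 proliferation genes (red), with SALL4A (left) and knockdown (right). With knockdown the chromatin genes and the proliferation genes run together, over most of their range to the left of all genes (medians -0.30 and -0.48 against -0.01), while with SALL4A the proliferation genes lie further right (0.40) than the chromatin genes (0.17).

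The SALL4A and knockdown comparisons share no library, so their directions could be set beside each other. Of 34 members, 20 (58.8%) were higher with SALL4A and lower after knockdown, beside 28.4% of 11238 genes, and 3 (8.82%) were lower and then higher, beside 22.5%. Higher in both were 3 of the 34 members and lower in both 8, beside 2683 and 2832 of the 11238 genes. Since 23 of 34 members were higher with SALL4A and 28 of 35 lower after knockdown, a high joint share follows largely from those counts. It is not a separate result. Past 1.5-fold both times were SUZ12 and GATAD2A in the first direction and EZH1 in the second, or 5.88% and 2.94%, beside 2.37% and 1.99% of all genes. For SALL4B and knockdown, 13 (38.2%) were higher and then lower, beside 29.7% of 11232 genes, and 2 (5.88%) were lower and then higher, beside 21.4%. The largest class was lower in both, with 15 of 34 members, beside 2694 of 11232 genes. Higher in both were 4 of 34 members, beside 2794 of 11232 genes. No member passed 1.5-fold both times in opposite directions, beside 2.39% of all genes higher then lower and 2.32% lower then higher. The members were taken up with earlier results of these data known, so these shares are descriptions.

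Other genes of the same complexes, from related lists, showed no common shift with SALL4A. The 16 further PRC1 genes tested had a median of 0.02 with SALL4A and -0.14 with SALL4B, and 17 had a median of -0.06 after knockdown. None was past 2-fold with SALL4A. With SALL4B 1 was lower, beside 4.86% of all genes. After knockdown 2 were higher and 2 lower, beside 9.73% and 8.13%. PCGF1 (-0.64) and CBX6 (0.64) had the largest SALL4A ratios, and PHC1 had a SALL4B ratio of -1.15. After knockdown PCGF5, a BMI1 relative, was at 5.18 against 20.3 FPKM (-1.78) and BCORL1, a corepressor, at 2.65 against 8.72 FPKM (-1.41). Between the isoforms KDM2B, which brings PRC1 to CpG islands, had 9.59 FPKM with SALL4A against 4.88 with SALL4B (0.85).

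A list of further PRC2 genes also held KDM6A, KDM6B, BAP1 and the ASXL genes. The 7 tested had small ratios with either isoform, from -0.01 to 0.32 with SALL4A and from -0.20 to 0.23 with SALL4B. None of them was past 2-fold. After knockdown 1 of 9 was at least 2-fold higher, LCOR at 24.0 against 11.5 FPKM (1.003), beside 9.73% of all genes. None was at least 2-fold lower, beside 8.13%, with ASXL2 at -0.90. The 18 CoREST and SIN3 genes had medians of -0.03 with SALL4A, 0.16 with SALL4B and -0.13 after knockdown. None was past 2-fold with SALL4A or SALL4B. ZMYM2, a CoREST partner, was at 0.92 after knockdown.

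Of 10 further NuRD partners tested, 4 were at least 2-fold lower after knockdown, beside 8.13% of all genes, and 1 was higher, beside 9.73%, with a median of -0.51. Between the lines, 5 of 9 tested were at least 2-fold higher in untreated SNU-398, beside 23.7%, and 1 was lower, beside 21.4%, with a median of 1.68. BCL11A, a zinc finger repressor with the same kind of NuRD-binding motif, was at 2.98 FPKM after knockdown against 10.2 untreated (-1.50). SALL2 was at 4.73 FPKM after knockdown against 13.1 untreated (-1.29). In SNU-387 only 4 of the 11 passed the filter, none of them past 2-fold, the NuRD subunit gene CDK2AP1 being at -0.47 with SALL4A and -0.48 with SALL4B. Of 9 further DNA methylation genes, HELLS, a remodeller that works with DNMTs, was at 38.3 against 21.8 FPKM with SALL4A (0.79), and ZBTB38, a reader of methylated DNA, was at -0.83 with SALL4B. None of the 9 was past 2-fold with either isoform. Their median after knockdown was 0.12, with 6 higher and 3 lower.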

How the data were processed

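Total RNA of 5 cultures (3 SNU-387, 2 SNU-398) was sequenced after ScriptSeq Complete Gold preparation, per the labels' protocols. The deposited values are FPKM per gene. Per the submitters' processing notes, TopHat2, SAMtools, Cufflinks and Cuffdiff were used on GRCh38 (hg38). For versions, annotation, strand use and joint normalisation the sources used here give nothing. Each table had 26032 rows. Rows without a gene name (17, a dash) were dropped, and the several rows of 450 symbols were added up. Log2 ratios used a pseudocount of 1 FPKM, with 1 FPKM or more in either library. Fold limits were 2 and 1.5.

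Depth came from steps between low FPKM values of genes with 1 GENCODE 29 transcript of at least 1000 bases, less 150 bases for effective length. At the chosen depths 79.0 to 82.8% of low values lay within 0.2 fragments of a whole number. Counting intervals (95%) used these depths and principal transcript lengths. They cover counting error only. Functions were tested on simulated data with known ratios and depth. Gene coordinates are GENCODE 29 on GRCh38.

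All listed genes are accounted for, and related lists are named by their 2 largest ratios per comparison within a line. Some items that this rule names are not reported here. Members and lists were chosen with earlier results of these data known. Alternatives were 2 pseudocounts, 2 filters, 2 scalings, and the largest row per symbol. Python 3.11.15, numpy 2.4.6, pandas 2.3.3 and matplotlib 3.10.9 were used.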

Additional observations from a re-analysis of the deposited data

How the results depend on the processing

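With 1 library per group no replicate could be left out. No paired analysis was possible because each group held 1 library and the result comes from no test. No ratio past 2-fold changed sign under the 7 alternatives or under the median of all genes set to 0, which was added after the data were seen. With a pseudocount of 0.1, 1 member was at least 2-fold lower with SALL4A, beside 648 of 12441 genes. Between SALL4A and SALL4B 2 were, beside 711 of 12424 genes. With a pseudocount of 5, none was lower between the isoforms (0), beside 154 of 12424 genes. After knockdown 0 were then higher and 1 lower, beside 508 and 382 of 13716 genes. The median between lines was 0.62 at that pseudocount. With a common upper quartile the median between lines was 0.90. With a common total without small RNAs, 1 member was at least 2-fold higher with SALL4A, beside 340 of 12341 genes. Between the isoforms the median was then 0.28 with 1 higher and 0 lower, beside 636 and 235 of 12293 genes. Between lines that scaling gave a median of 1.07 with 0 lower, beside 2319 of 14067 genes. Higher genes made up 65.6% of all genes past 2-fold, against 52.6%. Other filters and the largest row per symbol left the medians within 0.1 and the counts within 1.5 times. The values of the knockdown and SALL4B libraries, at an estimated 7790000 and 9550000 fragments, were the least precise, and CBX7 and RING1 had the fewest fragments of the members, beside CHD5 in SNU-387.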

Other observations

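Other histone deacetylases and demethylases are not on the list of genes described. Their log2 ratios ranged most widely between the lines, from -2.09 to 1.71 for the deacetylases and from -1.36 to 1.48 for the demethylases. All genes also ranged most widely there, with a 10th to 90th percentile of -1.88 to 1.82. Within a line, of 9 further HDAC genes, HDAC4 was at 2.73 against 7.61 FPKM after knockdown (-1.21). It was the only one past 2-fold there, where 8.13% of all genes were at least 2-fold lower and 9.73% higher. HDAC3, the deacetylase of the NCOR complex, was at 18.3 against 35.3 FPKM (-0.91). With SALL4A, 8 of 9 HDAC genes were lower, where 49.3% of all genes were. HDAC6 had the lowest ratio (17.1 against 27.1 FPKM, -0.64), and none of the 9 was past 2-fold. Of 10 histone demethylase genes 8 were higher after knockdown, where 49.4% of all genes were. KDM4C was at 36.2 against 20.3 FPKM (0.80), while KDM1B, the paralog of KDM1A, was at 11.2 against 25.4 FPKM (-1.12). With SALL4A and with SALL4B none of the 10 was past 2-fold.

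The summed level of 9 genes known as polycomb targets was 15.2 to 21.4 FPKM in the SNU-387 libraries and 91.4 to 96.8 FPKM in the SNU-398 libraries. After knockdown CDKN2B, a cell cycle inhibitor, was at 53.8 against 21.9 FPKM (1.26) and HOXD13 at 15.2 against 39.9 FPKM (-1.34), so the list had no single direction. With SALL4B, CDKN1C was at 17.2 against 7.74 FPKM (1.06). Of 12 germline genes that DNA methylation keeps silent in many tissues, at most 2 reached 1 FPKM in any library. GAGE1, of a family of near-identical copies that can share reads, had 8.50 FPKM after knockdown against 13.8 FPKM without it (-0.64), and SYCP3 was at or below 1.07 FPKM in all 5.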
